A study of Saccharomyces cerevisiae with 30 samples.

Results

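Wild-type budding yeast was compared between time point 2 and time point 5 of the yeast metabolic cycle, the respiratory oscillation that a dense culture enters when glucose is supplied slowly. The 6 libraries, of 30 in the series, were 3 of time point 2 and 3 of time point 5, chosen by their titles. Each set of 3 came from 3 consecutive cycles, and all genes counted were examined. The strain background was CEN.PK122-alpha, the genotype was wild type (labelled wt), and the culture was grown in a chemostat in a low glucose environment after an initial rich phase and a period of starvation. Samples of 5 ml were taken, and total RNA was used. The same pair of time points in the yaf9 mutant, whose Yaf9 protein carries the change W89A (strain W89A, grown alike, again 3 libraries against 3), is used below only to ask where the wild type differs. Yaf9 is a chromatin reader shared by the SWR1 and NuA4 complexes. No separate cultures were stated, so p-values measure the spread between cycles of what may be a single culture per strain.

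In this oscillation, phases of high oxygen use alternate with phases of low oxygen use, and genes of different functions are expressed in turn. Ribosome building, translation and nucleotide synthesis are known for a growth phase, in which acetyl-CoA from stored or secreted carbon is plentiful. Stress, storage carbohydrate, autophagy and proteasome genes are known for a later, quiescent-like phase. The labels number the time points without naming phases.

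The time point 2 libraries held 18795525, 19213208 and 20260295 counts, and those of time point 5 held 16540627, 17784489 and 19068720. Levels are given as CPM, which are counts divided by each library's TMM-normalized size, and they measure a share of RNA. Whether the RNA per cell changed was not measured, and fewer cells of a kind and less RNA per cell cannot be told apart. The 10 most abundant genes took 7.59 to 7.74% of counts at time point 2 and 16.1 to 16.5% at time point 5. On a line from the mean of the time point 5 libraries, set at 0, to that of time point 2, set at 1, each library being placed by the others, the third-cycle library of time point 2 lay at 0.870. The other time point 2 libraries lay at 1.02 and 1.04, and those of time point 5 between 0.00499 and 0.0370. That library was the highest of its 3 for 648 of the 1018 genes at least 2-fold higher at time point 5, or 63.7%. Values without it are given below where they differ most. Markers of mating type matched the label: the alpha-factor gene MF(ALPHA)1 averaged 2289 CPM at time point 2 and 908 CPM at time point 5. The 7 markers of mating type a averaged 1.49 to 15.3 CPM at time point 2 and 3.80 to 20.9 CPM at time point 5.

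Of 6044 genes tested, 3926 passed an adjusted p of 0.05 (edgeR quasi-likelihood test, Benjamini-Hochberg adjustment), which is 65.0%. Of these, 1977 (32.7% of the genes tested) were higher at time point 2 and 1949 (32.2%) were higher at time point 5. At least a 2-fold change was seen in addition for 963 genes (15.9%) higher at time point 2 and 1018 (16.8%) higher at time point 5. The 3 and 3 libraries did not overlap for 4233 genes, 70.0% of those tested, with 35.3% higher at time point 2 and 34.7% higher at time point 5. Without the third-cycle library of time point 2, 3876 genes passed. A gene list is read below against these shares. The median fold change of all genes tested was 0.0087 on the log2 scale, with quartiles at -0.67 and 0.63. Fold changes are log2, time point 2 minus time point 5, with their standard error (SE) over 3 and 3 libraries.

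**Figure D1:**
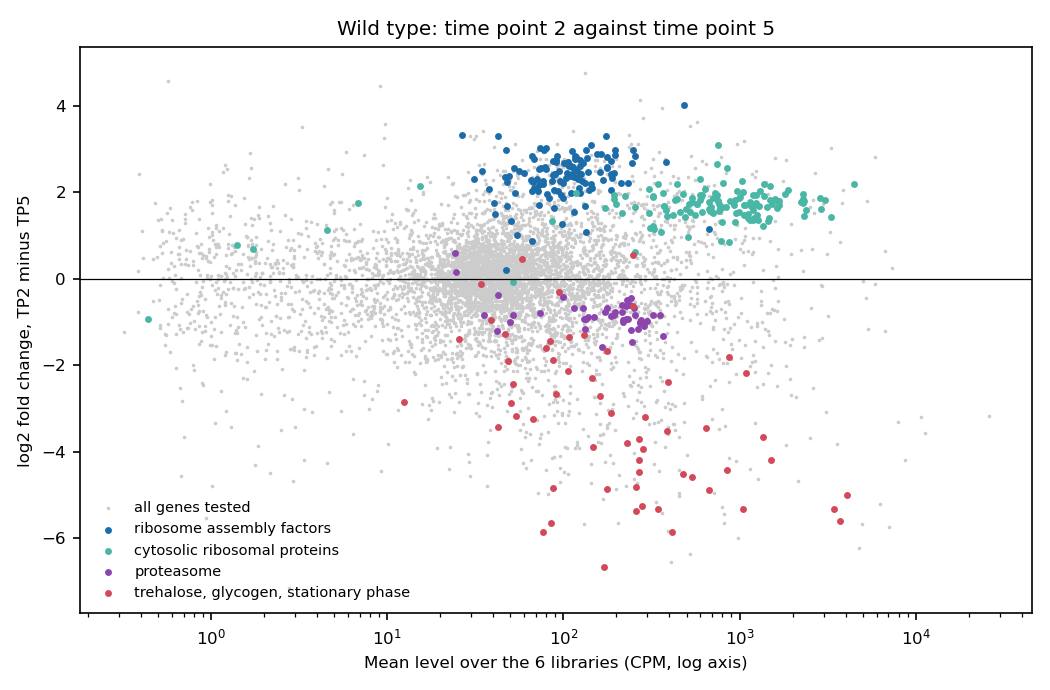
Each point is a gene, with its mean CPM over the 6 wild-type libraries on a log axis and its log2 fold change, time point 2 (TP2) minus time point 5 (TP5). Ribosome assembly factors lie above 0 and cytosolic ribosomal proteins mostly so, the lowest of them at -0.92. Proteasome, trehalose, glycogen and stationary phase genes lie mostly below 0, and the fold changes reach -7.15 on the TP5 side and 4.77 on the TP2 side.

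Among genes with a symbol, separate libraries and a mean of at least 10 CPM, the largest changes were those of genes higher at time point 5. SPG1, a gene known for its role in stationary phase, was measured at 2.75, 3.56 and 3.59 CPM at time point 2 and 283, 397 and 327 CPM at time point 5. CTT1, cytosolic catalase, was measured at 5.91, 5.58 and 13.9 CPM at time point 2 and 652, 896 and 868 CPM at time point 5. ADY2, an acetate transporter of the plasma membrane, was measured at 6.71, 5.00 and 25.7 CPM at time point 2 and 1071, 1013 and 1013 CPM at time point 5. In each of the 3 genes every time point 5 library was far above every time point 2 library, and for CTT1 and ADY2 the third-cycle library was the highest of time point 2. Without that library the fold change of ADY2 was -7.47. With all 6 libraries the fold changes of the 3 genes were -6.66 ± 0.18 (adjusted p = 8.88e-11), -6.56 ± 0.45 (adjusted p = 1.48e-05) and -6.37 ± 0.81 (adjusted p = 0.00146). ACS1, an acetyl-CoA synthetase, was measured at 40.8, 68.7 and 264 CPM at time point 2 and 8905, 9577 and 9549.7 CPM at time point 5, a fold change of -6.23 ± 0.93 (adjusted p = 0.00266). Its 3 low values differed among themselves more than its 3 high ones, and without the third-cycle library of time point 2 the fold change was -7.41. The other genes among the 15 largest changes were RGI2, SOL4, RTN2, FAT3, ADH2, HSP26, GIP2, TKL2, HSP12, POX1 and PHM7, with fold changes from -6.00 (RGI2) to -5.42 (PHM7). They include alcohol dehydrogenase that consumes ethanol (ADH2), a small heat shock protein (HSP26), the membrane-protecting HSP12 and the first enzyme of peroxisomal fatty acid oxidation (POX1). Without the third-cycle library of time point 2 the fold changes were -6.68 for ADH2 (-5.75 with it), -6.67 for HSP26 (-5.66), -6.56 for SOL4 (-5.87), -6.52 for HSP12 (-5.60) and -6.17 for POX1 (-5.43).

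Genes higher at time point 2 changed by less at the extreme. HXT4, a hexose transporter, was measured at 421, 533 and 584 CPM at time point 2 and 24.5, 27.9 and 35.5 CPM at time point 5, a fold change of 4.13 ± 0.18 (adjusted p = 9.18e-10). DBP2, an RNA helicase, was measured at 869, 925 and 927 CPM at time point 2 and 52.5, 59.6 and 56.7 CPM at time point 5, a fold change of 4.01 ± 0.14 (adjusted p = 2.11e-10). AAH1, adenine deaminase, was measured at 602, 648 and 793 CPM at time point 2 and 52.4, 35.7 and 44.3 CPM at time point 5, a fold change of 3.95 ± 0.18 (adjusted p = 9.96e-10). The groups were separate in all 3 genes, and the libraries of a time point lay close together beside the gap between time points. IMD4, an inosine monophosphate dehydrogenase that makes guanine nucleotides, followed at 3.71, and CTP1, the mitochondrial citrate carrier, at 3.62. The nucleolar protein NSR1 (3.53), CTP synthase URA7 (3.32) and the ribosome assembly helicases FAL1 (3.32), DBP3 (3.30) and DHR2 (3.29) stood in the same 15, with GFD2, PRM7, ATC1, REX4 and ECM1. PRM7 had the widest spread among them, at 101, 181 and 336 CPM at time point 2 and 11.8, 19.7 and 26.4 CPM at time point 5.

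**Figure D2:**
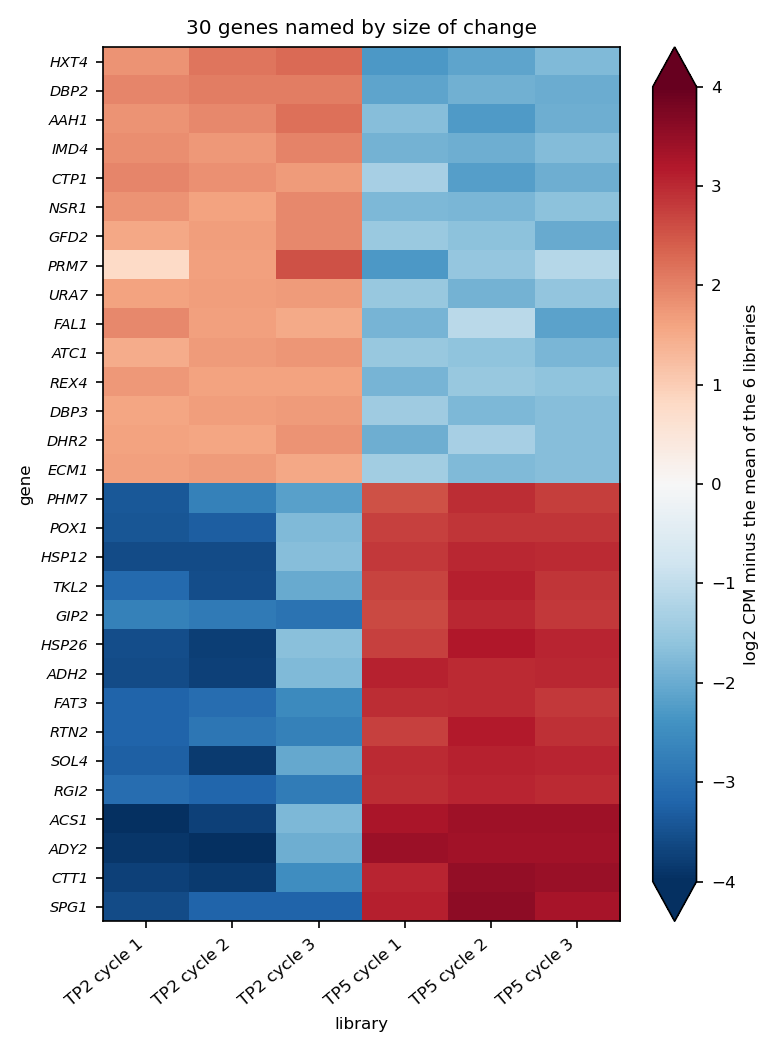
Rows are the 15 genes of largest fold change in each direction, columns the 6 wild-type libraries, and colour gives log2 CPM minus the gene's mean over the 6. The groups separate in every row, and in ACS1, ADY2, ADH2, HSP26 and HSP12 the third-cycle TP2 library is paler than the other time point 2 libraries.

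Several of the most abundant transcripts differed in the same way. At time point 5, TDH3, glyceraldehyde-3-phosphate dehydrogenase, took more counts than any other gene, at 3656, 4073 and 7815 CPM at time point 2 and 44889, 48445 and 46964 CPM at time point 5, a fold change of -3.17 ± 0.29 (adjusted p = 6.03e-07). ALD4, mitochondrial acetaldehyde dehydrogenase, was measured at 1101, 1198 and 3019 CPM at time point 2 and 20851, 20992 and 20992 CPM at time point 5, a fold change of -3.56 and of -4.19 without the third-cycle library of time point 2, and the cell wall protein SED1 at 1682, 2025 and 2642 CPM at time point 2 and 20579, 17686 and 20027 CPM at time point 5. At time point 2, YEF3, the translation elongation factor found in fungi, took the most counts, at 10053, 10703 and 10192 CPM at time point 2 and 1480.1, 1403 and 1484 CPM at time point 5, a fold change of 2.83 ± 0.17 (adjusted p = 7.98e-09). MET6, methionine synthase, was measured at 8248, 8172 and 8259 CPM at time point 2 and 2163, 2496 and 2484 CPM at time point 5. All 5 genes were separate between the time points.

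Factors that build the ribosome were higher at time point 2 almost without exception. All 54 small subunit processome genes listed passed the threshold in that direction, with a median fold change of 2.42. Of 66 assembly factors of the large subunit, 65 did, with a median of 2.43, and RSA1 did not pass. Of 18 proteins of the small nucleolar RNA particles, 16 were higher at time point 2, and PIH1, a cofactor of their assembly, was higher at time point 5 (-0.45 ± 0.16), a call lost without the first-cycle library of either time point (adjusted p up to 0.0894). ENP2, a processome subunit, was measured at 209.6, 212 and 195 CPM at time point 2 and 28.6, 28.99 and 29.5 CPM at time point 5, and RRP8, an rRNA methyltransferase, at 169.9, 161 and 156 CPM at time point 2 and 22.1, 22.8 and 23.2 CPM at time point 5. GAR1, of the H/ACA particles that guide pseudouridylation, was measured at 468, 418 and 416 CPM at time point 2 and 48.7, 47.2 and 53.2 CPM at time point 5. In these 3 genes the libraries of a time point lay close together, far from those of the other. The summed share of the processome list was 0.884 to 0.938% of counts at time point 2 and 0.158 to 0.166% at time point 5.

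Genes of RNA polymerases I, II and III leaned to time point 2, those of polymerase II least by median. Of 15 RNA polymerase I genes, 13 were higher at time point 2 (median 1.72). RPA135, a catalytic subunit, was measured at 910.0, 967 and 896 CPM at time point 2 and 139, 123 and 127 CPM at time point 5, a fold change of 2.83 ± 0.13. RRN5, of the upstream activating factor, was higher at time point 5 (-0.77 ± 0.20). Of 21 genes of RNA polymerase III and its factors, 14 were higher at time point 2 (median 1.52), such as RET1 (1.76 ± 0.12). The 4 higher at time point 5 were TFC1, TFC3, TFC4 and TFC8, subunits of TFIIIC, which binds the promoters of tRNA genes. The call of TFC8 was lost in 2 of the 6 fits that left out 1 library (adjusted p up to 0.13). TFC4, for example, was measured at 13.9, 19.8 and 21.5 CPM at time point 2 and 33.6, 31.5 and 31.99 CPM at time point 5. Of 7 core genes of RNA polymerase II, 4 were higher at time point 2, with a median of 0.38. RPC40 and RPC19, which polymerases I and III share, had fold changes of 2.01 ± 0.12 and 2.06 ± 0.14.

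Cytosolic ribosomal protein genes were also higher at time point 2, by less than the assembly factors at the median. All 57 genes of the small subunit list and 77 of 81 of the large subunit list passed, with medians of 1.72 in both. The small subunit list took 10.8, 9.24 and 8.36% of counts in the 3 time point 2 libraries and 2.58, 2.43 and 2.56% in those of time point 5. RPL9A was measured at 1695, 1252 and 1114 CPM at time point 2 and 160.2, 146 and 169.8 CPM at time point 5, a fold change of 3.09 ± 0.18, and RPS22A at 1760.4, 1327 and 1264 CPM at time point 2 and 255, 226 and 255 CPM at time point 5, a fold change of 2.56 ± 0.16. Many of these proteins have a pair of near-identical genes between which reads may be split, so counts were also summed per protein. The sums were separate and higher at time point 2 for 78 of 79 proteins. RPL39 was the other and was listed at no more than 0.83 CPM in any library.

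Regulators of ribosome genes moved in both directions. TOD6, a repressor that binds the PAC motif, was higher at time point 2, at 119, 137 and 117 CPM at time point 2 and 20.1, 18.8 and 21.9 CPM at time point 5, a fold change of 2.62 ± 0.12 (adjusted p = 1.15e-09). Its paralog DOT6 was higher at time point 5, by far less (-0.39 ± 0.10). IFH1, a coactivator of ribosomal protein genes, was measured at 45.7, 56.2 and 77.7 CPM at time point 2 and 15.1, 15.7 and 12.7 CPM at time point 5, a fold change of 2.05 ± 0.19. CRF1, a corepressor of the same genes, was measured at 14.9, 21.6 and 24.6 CPM at time point 2 and 180.3, 178 and 169 CPM at time point 5, a fold change of -3.11 ± 0.16 (adjusted p = 4.14e-09). MRS6 (0.90 ± 0.10), FHL1 (0.66 ± 0.14), RAP1 (0.62 ± 0.14), SFP1 (0.56 ± 0.10) and SCH9 (0.32 ± 0.12) were higher at time point 2, although SCH9 lost its call in 4 of the 6 fits that left out 1 library (adjusted p up to 0.114). HMO1, STB3, ABF1 and CBF1 did not pass (STB3 at an adjusted p of 0.0513), with fold changes of 0.19, -0.44, 0.04 and -0.03.

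The rest of the translation apparatus followed the ribosome. Of 28 initiation factor genes, 27 were higher at time point 2 (median 1.36), such as TIF4631, the scaffold eIF4G (2.25 ± 0.12). EAP1, an inhibitor of translation that binds eIF4E, was higher at time point 5 (-0.43 ± 0.14). Its adjusted p was up to 0.0805 when 1 library was left out. All 21 cytosolic tRNA synthetase genes were higher at time point 2 (median 1.42), and so were 36 of 43 genes of tRNA modification and processing (median 1.51). Of 14 genes of elongation and release, 11 were higher at time point 2. HEF3, a paralog of YEF3, went the other way, at 3.33, 8.41 and 16.7 CPM at time point 2 and 141, 210.3 and 151 CPM at time point 5, a fold change of -4.13 ± 0.61 (adjusted p = 0.00273) and of -4.82 without the third-cycle library of time point 2. TEF1 and TEF2 encode the same protein, and their fold changes were 2.06 and -0.06. Counts could be split between such copies, so the split is uncertain.

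Genes of nucleotide synthesis mostly moved the same way. Of 27 genes of purine synthesis and one-carbon metabolism, 26 were higher at time point 2 (median 1.90), among them GUA1, guanosine monophosphate synthase (3.13 ± 0.15), and the one-carbon enzyme MIS1 (2.74 ± 0.12). ADE16 was higher at time point 5 (-0.76 ± 0.12). In pyrimidine synthesis 8 of 11 genes were higher at time point 2. The isozymes divided there: CTP synthase URA7 had a fold change of 3.32 ± 0.13 and its paralog URA8 -1.29 ± 0.12, and URA10, the minor orotate phosphoribosyltransferase, had -1.40 ± 0.21.

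Amino acid genes did not move as a block. Of 65 genes, 37 were higher at time point 2 and 14 at time point 5, with a median of 0.55. Lysine genes LYS12 (2.66 ± 0.14) and LYS4 (2.73 ± 0.15) and the leucine gene LEU9 (2.75 ± 0.13) were higher at time point 2. The 14 higher at time point 5 were 21.5% of the list, against 32.2% of all genes tested. They included ARG1, ARG3, ARG4, ARG7, ARG5,6 and CPA1, all of arginine synthesis. ARG2 and ARG8, of the same pathway, did not pass. ARG4, argininosuccinate lyase, was measured at 399, 309 and 332 CPM at time point 2 and 989.6, 1198 and 1249 CPM at time point 5, a fold change of -1.72 ± 0.15, and ARG1, argininosuccinate synthase, at 458, 414 and 521 CPM at time point 2 and 1107, 1465 and 1407 CPM at time point 5, a fold change of -1.51 ± 0.16. Of 34 genes of sulfur assimilation and methionine, 22 were higher at time point 2 (median 0.62), such as SAM1, S-adenosylmethionine synthetase (2.79 ± 0.16). Genes for the use of poor nitrogen sources were mixed: DAL2 (2.16 ± 0.17) and the ammonium permease MEP2 (2.27 ± 0.29) were higher at time point 2, and the proline permease PUT4 (-3.89 ± 0.15) and glutamate dehydrogenase GDH2 (-2.36 ± 0.16) at time point 5.

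**Figure D3:**
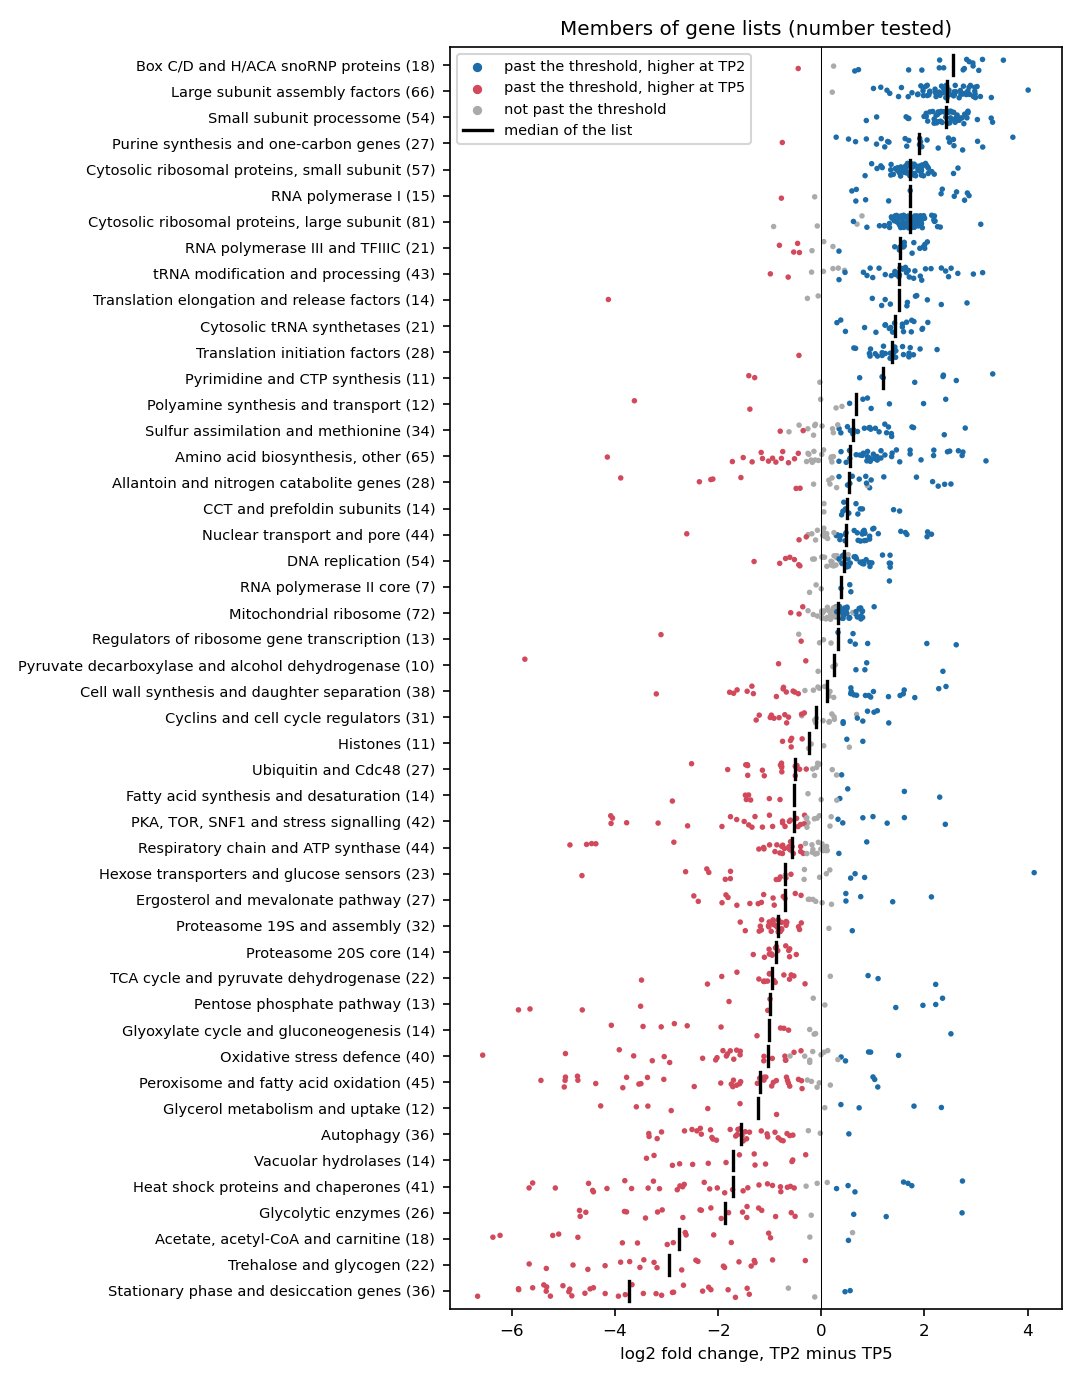
Each point is a gene of a list, placed by its log2 fold change (TP2 minus TP5) and coloured by whether it passed an adjusted p of 0.05 (blue, higher at TP2, red, higher at TP5, grey, not past), and black bars are list medians. Medians run from 2.56 for small nucleolar RNA particle proteins to -3.73 for stationary phase genes, and lists such as those of the cell wall and cyclins straddle 0.

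Storage carbohydrate genes were higher at time point 5 throughout. All 22 genes of trehalose and glycogen metabolism passed in that direction, with a median of -2.95 and of -2.96 without the third-cycle library of time point 2. GLC3, the glycogen branching enzyme, was measured at 18.9, 19.996 and 14.7 CPM at time point 2 and 494, 527 and 486 CPM at time point 5, a fold change of -4.81 ± 0.15 (adjusted p = 1.49e-10). PGM2, the major phosphoglucomutase, was measured at 30.5, 26.4 and 26.996 CPM at time point 2 and 469.6, 539 and 523 CPM at time point 5, a fold change of -4.19 ± 0.13. GIP2, which resembles glycogen-targeting subunits of the Glc7 phosphatase, was measured at 3.59, 3.32 and 2.99 CPM at time point 2 and 147, 189 and 165 CPM at time point 5. Genes of degradation were included, since the acid trehalase gene ATH1 had a fold change of -3.24 ± 0.20. The list took 0.0761 to 0.0940% of counts at time point 2 and 0.603 to 0.628% at time point 5.

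Genes known from stationary phase and desiccation had the lowest median of all lists described, -3.73, and -3.90 without the third-cycle library. Of 36, 32 were higher at time point 5, such as RTN2 (-5.87 ± 0.19) and RTC3 (-4.84 ± 0.17). SNZ1 and SNO1, of vitamin B6 synthesis, were higher at time point 2 (0.56 ± 0.14 and 0.46 ± 0.15), SNO1 with an adjusted p of up to 0.0897 when 1 library was left out, and neither passed when all 30 libraries shared a spread. Of 40 oxidative stress genes, 26 were higher at time point 5, with CTA1, the peroxisomal catalase, at -4.96 ± 0.17, GPX1, a glutathione peroxidase, at -3.92 ± 0.15 and mitochondrial superoxide dismutase SOD2 at -2.30 ± 0.14. The 5 higher at time point 2 included the glutaredoxin GRX3 (0.96 ± 0.11) and thioredoxin reductase TRR1 (0.92 ± 0.11).

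Chaperone genes divided. Of 41 genes of heat shock proteins and chaperones, 31 were higher at time point 5 and 7 at time point 2, with a median of -1.72. HSP78, a mitochondrial disaggregase, was measured at 44.8, 55.04 and 62.96 CPM at time point 2 and 429, 658 and 582 CPM at time point 5, and BTN2, a sorting factor of misfolded proteins, at 25.9, 31.4 and 35.9 CPM at time point 2 and 239, 296 and 285 CPM at time point 5. SSB1, which binds nascent chains on the ribosome, was measured at 3285, 3361 and 2895 CPM at time point 2 and 522, 422 and 488 CPM at time point 5, a fold change of 2.74 ± 0.16 in the other direction. SSB2 (1.76 ± 0.17), SSZ1 (1.59 ± 0.12) and ZUO1 (1.68 ± 0.14), the remaining members of that ribosome-bound set, were higher at time point 2 as well. Of 14 subunits of the cytosolic chaperonin CCT and its partner prefoldin, 12 were higher at time point 2, with a smaller median of 0.50.

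Genes of protein breakdown were mostly higher at time point 5, and those of the proteasome in nearly every subunit. All 14 genes of the 20S proteasome core passed, with a median of -0.88, and so did 30 of 32 of the 19S particle and assembly factors (median -0.84). The core list took 0.235 to 0.265% of counts at time point 2 and 0.401 to 0.416% at time point 5. PRE3, a catalytic subunit, was measured at 207, 188 and 234 CPM at time point 2 and 538, 520.1 and 510.1 CPM at time point 5, a fold change of -1.32 ± 0.13. RPN4, the transcription factor of proteasome genes, was measured at 86.2, 94.4 and 70.5 CPM at time point 2 and 216, 288 and 242 CPM at time point 5, a fold change of -1.57 ± 0.14. POC4, an assembly chaperone, was higher at time point 2 (0.60 ± 0.15). Autophagy genes had a lower median: 33 of 36 were higher at time point 5 (median -1.55). ATG8, the ubiquitin-like protein of the autophagosome membrane, was measured at 13.6, 14.3 and 20.4 CPM at time point 2 and 94.5, 112 and 97.5 CPM at time point 5, and ATG7, which activates it, at 8.87, 5.53 and 5.47 CPM at time point 2 and 57.3, 67.8 and 54.6 CPM at time point 5. All 14 genes of a hydrolase list, most of them vacuolar, were higher at time point 5 (median -1.72), such as aminopeptidase APE1 (-2.19 ± 0.14). That list includes YPS1, and ATH1 and NTH1, which were counted above with trehalose and glycogen. Not all of its members are vacuolar or act on protein.

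Genes that use acetate, ethanol and fatty acids were higher at time point 5. Of 18 genes of acetate, acetyl-CoA and carnitine metabolism, 15 passed (median -2.75). Their share of counts was 0.449, 0.551 and 0.936% in the time point 2 libraries and 5.04, 5.11 and 5.18% in those of time point 5. JEN1, the lactate and pyruvate permease, was measured at 249, 285 and 454 CPM at time point 2 and 11801, 11999 and 12652 CPM at time point 5, a fold change of -5.21 ± 0.26 (adjusted p = 1.79e-09). Of 45 genes of peroxisomes and fatty acid oxidation, 37 were higher at time point 5 (median -1.20), and PEX21, PEX25 and PEX31 were higher at time point 2. In the glyoxylate cycle and gluconeogenesis 10 of 14 were higher at time point 5, with malate dehydrogenase MDH2 at -4.07 ± 0.22, fructose bisphosphatase FBP1 at -3.46 ± 0.20 and isocitrate lyase ICL1 at -2.60 ± 0.18. Glycolytic genes were higher at the same time point, 22 of 26, with a median of -1.87 (without the third-cycle library, -2.08). Of the remaining 4, HXK2, GPM3 and PFK27 were higher at time point 2. PFK27, which makes the glycolytic activator fructose 2,6-bisphosphate, was measured at 228, 283 and 374 CPM at time point 2 and 48.2, 40.6 and 44.7 CPM at time point 5, and PFK26, which makes the same compound, at 19.4, 21.3 and 20.1 CPM at time point 2 and 120.5, 145 and 125 CPM at time point 5. These genes moved in opposite directions, with fold changes of 2.73 ± 0.17 and -2.68 ± 0.12.

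Mitochondrial genes differed by function. Of 22 genes of the tricarboxylic acid cycle and pyruvate dehydrogenase, 18 were higher at time point 5 (median -0.96), and IDH1 (1.10 ± 0.12) and IDH2 (0.91 ± 0.14), subunits of mitochondrial isocitrate dehydrogenase, were higher at time point 2, IDH2 not when all 30 libraries shared a spread. Of 44 genes of the respiratory chain and ATP synthase, 27 were higher at time point 5 (median -0.57). They were led by STF2 (-4.87 ± 0.15) and STF1 (-2.86 ± 0.13), which act on the inhibition of the ATP synthase, and COX26 (-4.37 ± 0.15). Most listed subunits of the synthase itself did not pass: ATP1, ATP2, ATP3, ATP4, ATP5, ATP7, ATP14, ATP16, ATP18 and ATP19. Its subunit genes ATP15 and ATP17 were higher at time point 5, and ATP20 and TIM11 at time point 2. Mitochondrial ribosome genes were slightly higher at time point 2, 42 of 72, with a median of 0.33. Of 27 sterol pathway genes, 16 were higher at time point 5, with HMG1, the rate-limiting reductase, at -2.47 ± 0.16. ERG4, the last enzyme of the pathway, went the other way (2.14 ± 0.18).

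Isozymes and isoforms were compared within a single reaction. The first gene of each pair was set beforehand as the one of growth, with earlier results of these data known. The directions within pairs are therefore a description, and HXK2 stands in the pairs with HXK1 and with GLK1. Of 30 pairs, 9 had the first gene higher at time point 2 and the second at time point 5. Another 12 had both higher at time point 5, and ASN1 and ASN2 were both higher at time point 2. In 12 pairs the gene with the larger level per kilobase was not the same at the 2 time points. Levels of a pair are compared in CPM per kilobase, as mean ± SD over 3 libraries. ADH1, which makes ethanol, was at 1850.0 ± 455 at time point 2 and 1005 ± 32.6 at time point 5, and ADH2, which consumes it, at 246 ± 203 at time point 2 and 13220.0 ± 443 at time point 5. ADH2 was thus 10.7% of the pair's summed level at time point 2 and 92.9% at time point 5. The transketolase TKL1 was at 1008 ± 77.6 at time point 2 and 198 ± 39.9 at time point 5, and TKL2 at 15.6 ± 8.93 at time point 2 and 784 ± 116 at time point 5. HXK2, the main hexokinase, was at 698 ± 64.3 at time point 2 and 292 ± 22.3 at time point 5, and glucokinase GLK1 at 108 ± 28.4 at time point 2 and 2749 ± 139 at time point 5. The Ran GTPase GSP1 was at 944 ± 73.6 at time point 2 and 226 ± 25.6 at time point 5, and GSP2 at 30.3 ± 15.2 at time point 2 and 185 ± 5.39 at time point 5. Each of these 4 pairs had opposite directions, and the call of ADH1 was lost when all 30 libraries shared a spread. In ACS2 and ACS1, by contrast, both were higher at time point 5, ACS2 at 360.1 ± 14.9 at time point 2 and 712 ± 61.7 at time point 5 and ACS1 at 58.2 ± 56.9 at time point 2 and 4362 ± 178 at time point 5. FKS1, of the glucan synthase, had a fold change of 2.42 ± 0.16, and for its alternative GSC2 it was -0.07 and did not pass.

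**Figure D4:**
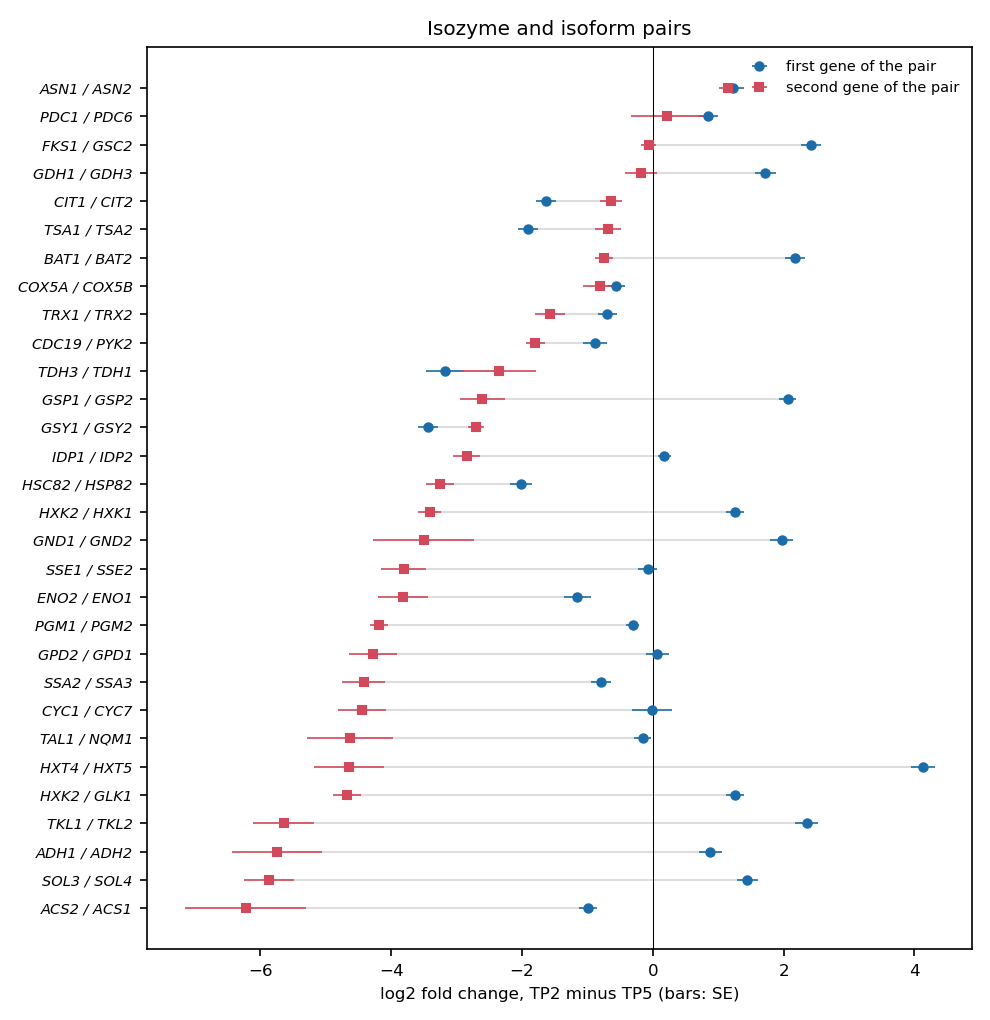
For each of 30 pairs, log2 fold change (TP2 minus TP5) with SE bars is shown for the first gene (circle) and the second (square). Squares, set beforehand as the genes not of growth, lie at negative values in most pairs. The widest gap is in HXT4 and HXT5, whose fold changes are 4.13 and -4.64 (HXT5 -5.31 without the third-cycle TP2 library).

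Signalling genes showed similar divisions. Of 42 genes of the protein kinase A, TOR, SNF1 and stress pathways, 26 were higher at time point 5 and 7 at time point 2. TPK2, a catalytic subunit of protein kinase A, was measured at 13.8, 19.2 and 31.1 CPM at time point 2 and 190.2, 186 and 199.7 CPM at time point 5. TPK3, also a catalytic subunit, was higher at time point 2, at 52.4, 58.1 and 57.2 CPM at time point 2 and 16.8, 20.7 and 17.4 CPM at time point 5. Their fold changes were -3.16 ± 0.28 and 1.61 ± 0.13, and that of the inhibitory subunit BCY1 was -1.76 ± 0.14. RAS1 (2.40 ± 0.12) and RAS2 (-1.64 ± 0.10), the GTPases that activate the pathway, also moved apart. The kinase YAK1 (-2.59 ± 0.13) and the factors USV1 (-3.77 ± 0.13), CIN5 (-4.08 ± 0.16) and SIP4 (-4.08 ± 0.13) were higher at time point 5. The stress activator MSN2 had -0.45 ± 0.13, and MSN4 did not pass (-0.29).

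Cyclins and cell cycle regulators passed in shares near those of all genes tested, 32.7% higher at time point 2 and 32.2% at time point 5. DNA replication genes did not. Of 31 cyclins and regulators, 8 were higher at time point 2, among them CLN3 (1.02 ± 0.11) and CLN2 (1.31 ± 0.18), G1 cyclins, and 11 at time point 5, among them SWI5 (-1.26 ± 0.20) and CDC20 (-1.20 ± 0.15), of mitosis. Of 54 DNA replication genes, 30 were higher at time point 2 (median 0.43), with ribonucleotide reductase RNR1 at 1.33 ± 0.17 and its damage-induced paralog RNR3 at -1.30 ± 0.23. YAF9 itself did not pass (-0.01 ± 0.13), at 26.2, 28.2 and 24.1 CPM at time point 2 and 27.01, 26.2 and 26.1 CPM at time point 5. SWR1, the ATPase of the histone exchange complex, was higher at time point 5 (-0.60 ± 0.14), as was HTZ1, the histone variant it deposits (-0.37 ± 0.14), whose adjusted p rose to as much as 0.11 with 1 library left out.

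Over all 15 wild-type libraries, time point 2 was the highest mean of 5 for 813 of the 963 genes at least 2-fold higher there, and time point 5 for 729 of the 1018 at least 2-fold higher there. A further 238 of the 1018 peaked at time point 4. Of all 6044 genes tested, 1816 peaked at time point 2 and 1671 at time point 5. The sets were chosen on time point 2 against 5, which leaves little room for a peak at the other of these time points, so these counts are a description. The cycle means of stationary phase genes, on log2 CPM centred per gene, were -0.55, -1.88, -0.07, 0.82 and 1.68 at time points 1 to 5. Those of the small subunit processome were 1.58, 1.89, -1.12, -1.85 and -0.50, so time point 5 was not the lowest point for these genes.

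Promoters were searched for 7 short motifs in the 250 bases before and 50 after the annotated start codon, on both strands, in 5730 protein-coding genes tested. PAC (GATGAG) and RRPE (AAAATTTT) are known from ribosome assembly genes, the stress response element STRE (AGGGG) is bound by Msn2 and Msn4, and PDS (AGGGAT) by Gis1. PACE (GGTGGCAAA) is bound by Rpn4, the heat shock element HSE by Hsf1 and GCRE (TGACTC) by Gcn4. RRPE is its own reverse complement, copies of PAC and of HSE can overlap, and a window can be shared with a divergent neighbour. A match is a description and not a site. The sequences below show the motif in genes of each direction, chosen among named genes after their matches were seen. Each line gives the first 190 bases of the window, ending 61 bases before the start codon, in the R64 reference of strain S288C from RefSeq, in the gene's direction, with the motif in capitals.
DHR2, PAC, chrXI:288595-288784, forward strand: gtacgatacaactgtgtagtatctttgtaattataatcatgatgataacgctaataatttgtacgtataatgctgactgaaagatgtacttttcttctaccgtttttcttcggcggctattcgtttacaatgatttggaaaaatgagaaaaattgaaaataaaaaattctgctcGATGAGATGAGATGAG
NOP58, RRPE, chrXV:898421-898610, reverse strand: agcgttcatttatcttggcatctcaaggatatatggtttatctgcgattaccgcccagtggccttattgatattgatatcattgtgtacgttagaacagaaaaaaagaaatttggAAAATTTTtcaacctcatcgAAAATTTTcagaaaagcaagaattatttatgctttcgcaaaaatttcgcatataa
YEF3, RRPE, chrXII:636530-636719, forward strand: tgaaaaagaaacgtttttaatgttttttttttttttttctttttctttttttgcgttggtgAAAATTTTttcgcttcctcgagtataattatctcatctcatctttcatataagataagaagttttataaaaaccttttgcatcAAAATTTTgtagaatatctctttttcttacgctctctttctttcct
GLK1, STRE, chrIII:50588-50777, forward strand: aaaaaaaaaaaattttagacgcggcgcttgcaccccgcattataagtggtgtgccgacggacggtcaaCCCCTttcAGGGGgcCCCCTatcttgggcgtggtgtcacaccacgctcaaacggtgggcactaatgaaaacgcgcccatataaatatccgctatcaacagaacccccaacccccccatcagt
ZWF1, STRE, chrXIV:198004-198193, reverse strand: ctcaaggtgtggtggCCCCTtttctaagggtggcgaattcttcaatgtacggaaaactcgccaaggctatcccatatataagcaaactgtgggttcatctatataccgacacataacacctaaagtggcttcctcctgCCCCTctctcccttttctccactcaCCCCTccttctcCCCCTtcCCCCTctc
SOL4, PDS, chrVII:985722-985911, forward strand: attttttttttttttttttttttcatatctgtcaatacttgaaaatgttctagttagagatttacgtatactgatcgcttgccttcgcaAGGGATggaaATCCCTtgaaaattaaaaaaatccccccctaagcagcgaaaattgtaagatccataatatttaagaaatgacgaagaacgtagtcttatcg
PRE3, PACE, chrX:434913-435102, forward strand: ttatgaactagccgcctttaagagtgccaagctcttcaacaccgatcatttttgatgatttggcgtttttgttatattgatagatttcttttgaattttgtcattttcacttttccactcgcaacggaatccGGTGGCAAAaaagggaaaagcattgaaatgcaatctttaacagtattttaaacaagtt
HSP78, HSE, chrIV:974304-974493, reverse strand: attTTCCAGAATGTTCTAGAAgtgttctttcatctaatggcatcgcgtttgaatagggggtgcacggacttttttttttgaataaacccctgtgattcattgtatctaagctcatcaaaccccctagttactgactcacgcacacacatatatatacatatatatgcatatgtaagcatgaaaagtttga

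PAC stood in 3 overlapping copies before DHR2, and RRPE in 2 copies each before NOP58 and YEF3, all higher at time point 2. PAC occurred in 42.6% of the promoters of genes at least 2-fold higher at time point 2, in 13.2% of those at least 2-fold higher at time point 5 and in 19.8% of all. RRPE occurred in 30.7, 2.67 and 9.18%. Of the small subunit processome promoters 88.9% held PAC and 75.9% RRPE, and of the large subunit assembly factors 90.9% and 78.8%. Among cytosolic ribosomal protein genes PAC stood in 10.9% and RRPE in 7.25%, below the shares of all promoters. The 258 genes with both motifs had a median fold change of 2.02, and 88.0% of them were higher at time point 2, against 32.7% of all genes tested. They include 38 genes of the small subunit processome list and 47 large subunit assembly factors, already described above. Genes with 0, 1, 2 and at least 3 PAC matches had medians of -0.07, 0.33, 1.59 and 2.25, with 32 genes in the last class.

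STRE ran the other way. It stood in 44.7% of promoters of genes at least 2-fold higher at time point 5, in 11.4% of those at least 2-fold higher at time point 2 and in 21.9% of all. GLK1 held 3 copies and ZWF1, glucose-6-phosphate dehydrogenase, 5, with fold changes of -4.67 ± 0.22 and -1.04 ± 0.13. Genes with 0, 1, 2 and at least 3 copies had medians of 0.11, -0.42, -1.08 and -1.70, with 28 genes in the last class. PDS stood in 15.3% of the time point 5 set, 5.58% of the time point 2 set and 9.28% of all promoters, and in 33.3% of stationary phase genes. PACE was rare, in 1.20% of all promoters, yet stood in 60.9% of the 46 proteasome genes. The 69 genes with PACE, of which 28 are these proteasome genes, had a median of -0.83, and 79.7% were higher at time point 5. HSE stood in 19.5% of heat shock and chaperone genes and in 0.785% of all. GCRE did not divide the directions, at 9.12% and 9.87%, beside 8.17% of all promoters. It stood in 53.8% of the amino acid list and 42.9% of tRNA synthetase genes.

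**Figure D5:**
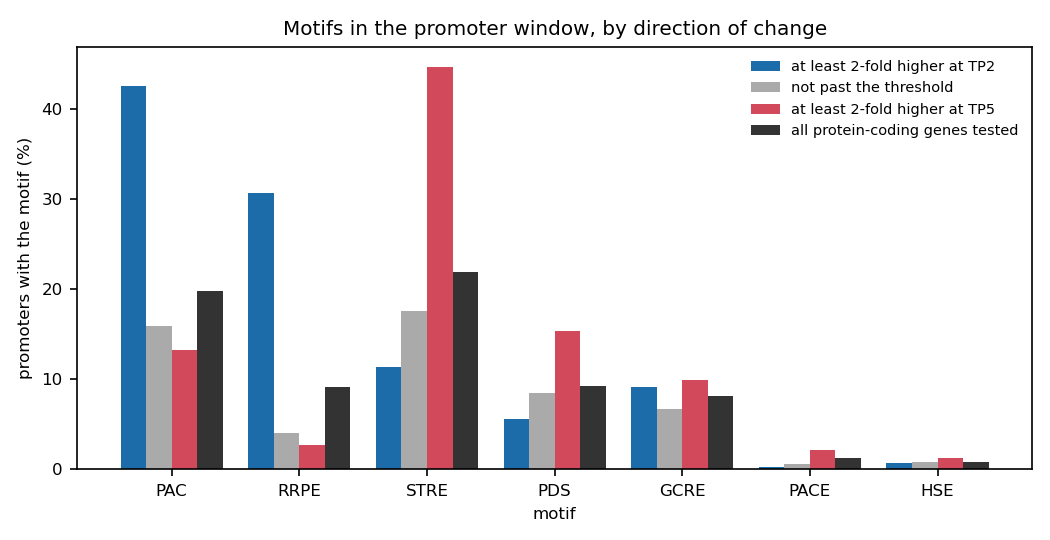
Bars give the percent of promoters (250 bases before to 50 after the start codon, either strand) with each motif, for genes at least 2-fold higher at TP2, genes not past the threshold, genes at least 2-fold higher at TP5 and all protein-coding genes tested. PAC and RRPE are more frequent in the TP2 set, at 42.6 and 30.7%, and STRE and PDS in the TP5 set, at 44.7 and 15.3%.

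The same comparison in W89A, which has its own libraries, called 3202 of 6012 genes (53.3%), and 30.2% with at least a 2-fold change. The authors' tables place the W89A libraries of the first cycle at time points 4 and 5 the other way round than the title order does. Exchanging them gave 3753 genes (62.4%). Of the 1969 genes at least 2-fold different in wild type and tested in both, 1557 (79.1%) were at least 2-fold different in the same direction in W89A and 7 in the opposite one. With the exchange the shared genes numbered 1479. The difference between strains was itself past the threshold for 57 of 6131 genes (0.930%), 55 (0.897%) with a higher fold change in W89A and HXK2 and CLN3 (0.0326%) with a lower one. With the exchange the test called 407 genes, 6.64% of 6132, which included all 57, 4.26% being higher in W89A and 2.38% lower.

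ARG1 and ARG4 were in this set. In wild type ARG4 was higher at time point 5 (-1.72), and in W89A it averaged 1742 ± 525 CPM at time point 2 and 535 ± 238 CPM at time point 5 (SD, 3 libraries each). The strain difference was 3.42 ± 0.48 (SE, adjusted p = 0.00551). For HXK2 the wild type fold change of 1.26 stood against 0.17 in W89A, a strain difference of -1.05 ± 0.21 (SE, adjusted p = 0.0399). With 1 library left out, the adjusted p rose to as much as 0.156 for HXK2, 0.0772 for ARG1 and 0.0318 for ARG4. Each strain has a single stated series of cycles, so strain and culture cannot be told apart. The median fold change of mitochondrial ribosome genes was 0.33 in wild type and -0.56 in W89A, and -0.03 with the exchanged library.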

How the data were processed

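The authors deposited whole-number counts of reads per feature for 30 libraries, 1 column per library. The table holds 7127 features. The aligner, the counting tool, the annotation and strandedness are not given in the sources used here, and identifiers are yeast systematic names. The submitters' processing notes list a single build, mm9, which is of mouse. Start and end in the deposited tables equalled those of the yeast R64 reference for 5889 of 5898 genes, so R64 coordinates are used. Reads of near-identical copies and of overlapping or antisense genes are uncertain between them. The gene lengths behind values per kilobase are those the authors deposited.

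The 6 libraries were fitted with edgeR 4.0.16 (R 4.3.3): TMM normalization, filterByExpr, robust quasi-likelihood F tests, 2-sided, with Benjamini-Hochberg adjustment over the 6044 genes kept and a threshold of 0.05. The filter removed 1083 features, of which 502 had no count in the 6 libraries. The common biological coefficient of variation was 0.1501. Of the genes tested, 5739 matched RefSeq. W89A was fitted alike, and the strain difference was the interaction over 12 libraries. DESeq2 1.42.0 and the other alternatives are given in the closing section. The fits were tested on simulated data. Promoters, motifs and figures used Python 3.11.15, pandas 2.3.3 and matplotlib 3.10.9.

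Gene lists, isozyme pairs, motifs and tests were chosen with earlier results of these data known. Genes are named by this rule: the 15 largest changes in each direction (past the threshold, libraries separate, mean of at least 10 CPM, with a symbol), the 5 most abundant in each direction with at least a 2-fold change, up to 3 per list and direction by smallest p, all regulators, both genes of an isozyme pair, the 5 largest strain differences in each direction, and YAF9, SWR1 and HTZ1. RSA1, RPL39, TEF2, the remaining members named in counts and the promoters printed were chosen after their values were seen. Some genes that the rule names are not reported here.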

Additional observations from a re-analysis of the deposited data

Results flagged for a closer look

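The comparison of time points 2 and 5 differed between wild type and W89A, by the edgeR interaction test over 12 libraries, for 57 genes, with 735 at an unadjusted p under 0.05. That count rests on the W89A library of cycle 1 at time point 5: it was 258 without that library and 407 with it exchanged for its time point 4 counterpart.

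By the rule for named genes, those with the largest strain differences in the direction of W89A were ARO5, ATG41, ARG1, SSU1 and ARG4, and the only ones in the other direction were HXK2 and CLN3. ARO5 had a strain difference of 4.14 ± 0.47 (SE, adjusted p = 0.0018). It averaged 48.96 ± 9.51 CPM at time point 2 and 156 ± 21.8 CPM at time point 5 in wild type, and 361 ± 118 and 64.9 ± 27.1 CPM in W89A (SD, 3 libraries each), so the direction of the 2 strains was opposite. ATG41 had 3.63 ± 0.37 (adjusted p = 0.000772), with 54.2 ± 7.95 and 462 ± 84.6 CPM in wild type and 299 ± 95.2 and 206 ± 43.6 CPM in W89A. ARG1, argininosuccinate synthase, had 3.62 ± 0.60 (adjusted p = 0.0155), SSU1, a sulfite exporter, had 3.49 ± 0.63 (adjusted p = 0.0266) and ARG4 had 3.42 ± 0.48 (adjusted p = 0.00551). SSU1 averaged 88.7 and 883 CPM at time points 2 and 5 in wild type and 506 and 449 CPM in W89A. Its W89A libraries of time point 5 were at 139, 493 and 714 CPM in cycles 1 to 3. The authors' tables place the cycle 1 library at time point 4, so the direction of SSU1 within W89A is not settled. HXK2 had -1.05 ± 0.21 (adjusted p = 0.0399) and the G1 cyclin CLN3 had -0.93 ± 0.16 (adjusted p = 0.0182). With the first-cycle libraries exchanged all 7 passed, from -1.05 for HXK2 to 3.92 for ARO5. Over the fits that each left out 1 library, the highest adjusted p was 0.156 for HXK2, 0.0789 for CLN3, 0.11 for SSU1, 0.0772 for ARG1, 0.0318 for ARG4, 0.0149 for ARO5 and 0.00664 for ATG41.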

How the results depend on the processing

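The count of genes past the threshold in wild type, 3926, stayed within 1.5 times under every alternative run: 3911 with RLE size factors, 3900 with DESeq2, 3936 without the filter, 3912 when scaling used neither the 10 most abundant genes nor mitochondrial ones, 4076 with all 15 wild-type libraries and 3896 with all 30. Leaving out each library in turn gave 3601 to 3876. Other scalings moved the median of all genes by -0.00839, -0.00851 and -0.00784. In W89A leaving out each library gave 2295 to 3543. The strain difference depended on the setting most: 57 genes became 203 with DESeq2 and 407 with the 2 W89A libraries of cycle 1 exchanged, and 18 to 258 when 1 library was left out. The 18 came without the second-cycle or the third-cycle wild-type library of time point 5, the 258 without that of W89A in cycle 1 at time point 5, and 111 without the third-cycle wild-type library of time point 2. The cause was not tested, except that leaving out a library also leaves fewer samples. Cycle numbers were not taken as pairs, since deviations of same-cycle libraries correlated at 0.104, -0.0142 and 0.0195. With cycle as a replicate block the counts were 3909 in wild type, 2905 in W89A and 44 for the strain difference. The log2 fold change of PDC6, which did not pass (0.22), was -0.58 to 0.55 when 1 library was left out, and -0.58 without the third-cycle library of time point 2 (adjusted p = 0.00305). Its values were 35.3, 45.6 and 130.0 CPM at time point 2 and 59.4, 70.3 and 51.1 CPM at time point 5. With the 250 bases before the start alone, PAC stood in 39.4% and STRE in 9.87% of the time point 2 set, and in 10.6% and 42.4% of the time point 5 set. Among genes named above, the calls of PIH1, TFC8, EAP1, SCH9, SNO1 and HTZ1 were lost when 1 of several libraries was left out, those of ADH1, IDH2, SNZ1, SNO1 and SCH9 when all 30 libraries shared a spread, and STB3 passed under 9 of 13 other settings. RPL39 had too few counts for a usable fold.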

Other observations

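Adjacent genes that both passed the threshold changed in the same direction in 403 of 625 divergent pairs (64.5%), which share the stretch between their starts, in 683 of 1216 tandem pairs (56.2%) and in 353 of 692 convergent pairs (51.0%). These are descriptions of the 6 wild-type libraries, and neighbours are not independent.

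Of 23 hexose transporter and glucose sensor genes tested, 13 were higher at time point 5 and 4 at time point 2, with a median of -0.69. HXT6 and HXT7, near-identical high-affinity transporters between which reads may be split, had fold changes of -2.18 ± 0.15 and -1.76 ± 0.16. Their levels were 477, 511 and 576 CPM at time point 2 and 2429, 2132 and 2536 CPM at time point 5 for HXT6 and 464, 524 and 639.9 CPM at time point 2 and 1862, 1653 and 1994 CPM at time point 5 for HXT7. The glucose sensor RGT2 was higher at time point 2 (0.66 ± 0.13).

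Of 38 cell wall genes, 16 were higher at time point 2 and 14 at time point 5, near the 32.7 and 32.2% of all genes tested. The glucan synthesis gene KRE6 was measured at 810.3, 813 and 689 CPM at time point 2 and 266, 234 and 268 CPM at time point 5, and the cell wall protein PIR1 at 379.8, 494 and 452 CPM at time point 2 and 1529, 1372 and 1207 CPM at time point 5. Of 27 iron genes, 7 were higher at time point 2 and 10 at time point 5, also near those shares, with the scaffold proteins of iron-sulfur cluster assembly ISU2 (1.77 ± 0.16) and ISU1 (-1.54 ± 0.14) in opposite directions.

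Of 4 marker genes of mating type alpha, 3 were higher at time point 2 and SAG1 did not pass, and of 8 haploid-specific genes 5 were higher at time point 2 and STE18 and GPA1 did not pass. Fold changes were, for MF(ALPHA)1, 1.33 ± 0.22, for STE3 1.02 ± 0.17 and for FUS3 1.44 ± 0.15, and RME1, a repressor of meiosis, was higher at time point 5 (-1.53 ± 0.13). Of 7 markers of mating type a, STE6 and AGA2 were higher at time point 5 (-0.80 and -1.57) and 5 did not pass. Of 15 genes of meiosis and sporulation tested, 6 were higher at time point 5, at low levels such as 7.44, 5.05 and 4.51 CPM at time point 2 and 19.6, 14.9 and 16.8 CPM at time point 5 for IME2. In the lists of mating type a and of meiosis, the share higher at time point 5 was near that of all genes tested. No gene of either list was higher at time point 2, against 32.7% of all genes tested. In the mating type alpha and haploid-specific lists, the share higher at time point 2 was above that 32.7%. These lists are short, and their shares were not tested against those of all genes.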
